A study of Mus musculus with 8 samples.

Results

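Proximal tubule cells take up filtered protein through a small set of receptors and the machinery that recycles them, and 8 genes of that set were followed here: Lrp2, Cubn, Amn, Dab2, Lrpap1, Clcn5, Ocrl and Rab11a. They were chosen by name, as the receptor complex with its adaptors and the genes of Dent and Lowe disease, and all 8 had a row among the 37583 genes of each count file and passed the filter on low counts. The tissue was whole mouse kidney, 4 libraries labelled knockout (genotype b-actinCreERT2+TFAP2Bfl/fl) and 4 labelled wildtype (genotype WT, control littermates). Cre under a beta-actin promoter is not limited to one cell type, and the dose and time of its induction, the age of the mice and whether the littermates carried Cre or floxed alleles were not stated in the sources used here. The libraries held 13435113 to 17930347 gene counts in the knockout-labelled libraries and 13783857 to 17741722 in the wildtype-labelled libraries. The labels do not tie the replicates to separate animals, so p-values measure the spread between these libraries.

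Megalin (Lrp2) is a giant receptor of the LDL receptor family that sits in the apical membrane of proximal tubule cells. Cubilin (Cubn) has no membrane-spanning part and reaches the surface through amnionless (Amn), and together they retrieve albumin, vitamin-binding proteins and hormones from the filtrate. Cargo is released in endosomes acidified with the help of the chloride-proton exchanger ClC-5 (Clcn5), while the phosphoinositide phosphatase OCRL (Ocrl) and the GTPase RAB11A (Rab11a) act on the traffic that returns receptors to the surface. Loss of CLCN5 in humans causes Dent disease, loss of OCRL Lowe syndrome, and loss of LRP2, CUBN or AMN various inherited proteinurias. Tfap2b, the targeted gene, encodes a transcription factor of the AP-2 family that is known from the distal nephron.

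Whole-gene counts of the targeted gene did not fall in the knockout-labelled libraries. Tfap2b stood at 238.1, 266.5, 237.0 and 240.3 CPM in the knockout-labelled libraries, against 94.3, 105, 110.5 and 103 CPM in the wildtype-labelled libraries (log2 fold change 1.25 ± 0.074 (SE), edgeR adjusted p = 4.18e-06). CPM are counts scaled to a common library size with TMM factors. A count per gene also takes in exons that the deletion may spare and so does not check it, and every direction given here is that of the labels. Of 15228 genes tested, 6.23% rose and 5.7% fell in the knockout-labelled libraries at an edgeR adjusted p under 0.05, 11.9% in all. The share of calls that were upward was 52.2%, and 76.5% with libraries scaled by their totals alone, which put the median of all genes at 0.11 on the log2 scale.

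The start sites of the genes are shown for the pair that fell, Lrp2 and Amn, for Cubn, whose profile over the libraries lay closest to that of Lrp2, and for Rab11a, whose levels hardly differed. Each sequence runs from 250 bases before to 50 bases after a start site, 5′ to 3′ on the strand of the gene, from RefSeq on build GRCm38.p6 (Lrp2 at chr2:69585980-69586279, minus strand; Cubn at chr2:13491827-13492126, minus; Amn at chr12:111270846-111271145, plus; Rab11a at chr9:64737707-64738006, minus). Capitals mark GCCNNNGGC, a form of the motif bound by AP-2 factors, searched on both strands.
Lrp2: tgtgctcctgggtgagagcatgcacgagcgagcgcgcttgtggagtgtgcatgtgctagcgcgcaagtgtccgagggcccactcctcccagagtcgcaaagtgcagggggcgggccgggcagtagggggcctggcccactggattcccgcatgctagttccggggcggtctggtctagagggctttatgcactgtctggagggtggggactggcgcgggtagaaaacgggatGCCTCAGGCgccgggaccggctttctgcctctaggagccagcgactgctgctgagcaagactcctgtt
Cubn: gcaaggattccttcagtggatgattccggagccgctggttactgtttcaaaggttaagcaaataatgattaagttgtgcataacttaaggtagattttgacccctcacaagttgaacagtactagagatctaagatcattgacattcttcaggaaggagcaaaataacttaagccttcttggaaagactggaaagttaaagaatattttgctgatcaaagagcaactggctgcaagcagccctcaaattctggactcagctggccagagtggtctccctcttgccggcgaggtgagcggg
Amn: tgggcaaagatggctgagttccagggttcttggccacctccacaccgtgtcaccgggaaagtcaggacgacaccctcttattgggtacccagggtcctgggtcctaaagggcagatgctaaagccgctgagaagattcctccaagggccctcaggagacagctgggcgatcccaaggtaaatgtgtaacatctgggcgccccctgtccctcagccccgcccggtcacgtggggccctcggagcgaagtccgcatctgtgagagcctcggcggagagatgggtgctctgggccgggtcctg
Rab11a: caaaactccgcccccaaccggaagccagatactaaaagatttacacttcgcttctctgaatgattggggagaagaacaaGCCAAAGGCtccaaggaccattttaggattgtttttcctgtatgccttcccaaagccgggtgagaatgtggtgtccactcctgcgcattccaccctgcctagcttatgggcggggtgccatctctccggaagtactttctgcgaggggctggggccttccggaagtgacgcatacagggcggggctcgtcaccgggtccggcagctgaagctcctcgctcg
The motif began at position -18 in the Lrp2 sequence and at -171 in the Rab11a sequence, and the Cubn and Amn sequences held none. RefSeq listed 10 such windows for the 8 genes, and 3 of them, 1 each of Lrp2, Dab2 and Rab11a, held the motif, while 16.6% of all 32851 windows in the table did. The Dab2 match, at -203, lay in the second of its windows. The core of the site of HNF1, a proximal tubule factor, GTTAAT on either strand, was found in 1 window, that same one of Dab2, and in 7.1% of all windows. A match shows that the letters are present and does not show binding.

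Megalin mRNA was lower in every knockout-labelled library than in any wildtype-labelled one. Lrp2 (ENSMUSG00000027070, chromosome 2, 69424340 to 69586065 on GRCm38) stood at 3467, 2005, 3248 and 2905 CPM in the knockout-labelled libraries, against 3974, 4359.8, 4849 and 5484 CPM in the wildtype-labelled libraries. The groups did not overlap, although knockout 1 and wildtype 1 lay near each other, and knockout 2 was far below the other libraries. Means were 2906 ± 644 CPM in the knockout-labelled libraries and 4667 ± 652 CPM in the wildtype-labelled ones (SD, n = 4 each), and Lrp2 fell to 62.3% of the wildtype level (log2 fold change -0.68 ± 0.17 (SE), 95% confidence interval -1.05 to -0.32, edgeR adjusted p = 0.0235). The call was lost without knockout 4 (edgeR adjusted p = 0.063), and also without wildtype 3 (0.0587) and without wildtype 4 (0.0617). In whole kidney, fewer proximal tubule cells and less of a transcript per cell cannot be told apart.

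Within each group the libraries fell in the same order for cubilin as for megalin, with a wider spread among the knockout-labelled ones. Cubn (ENSMUSG00000026726, chromosome 2, 13276338 to 13491813) had 734, 343, 629 and 509.7 CPM in the knockout-labelled libraries, against 659.8, 830.4, 863 and 924 CPM in the wildtype-labelled libraries. Knockout 1 lay above wildtype 1, so the groups overlapped, and the other 3 knockout-labelled libraries lay below all of the wildtype-labelled libraries. The log2 fold change was -0.56 ± 0.21 (SE, 95% confidence interval -1.05 to -0.08), which did not pass in the fit over all genes (edgeR adjusted p = 0.124). It passed with DESeq2 (adjusted p = 0.0305) and without knockout 1 (edgeR adjusted p = 0.0475), where the log2 fold change was -0.73.

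Amnionless had the smallest spread of the receptor complex. Amn (ENSMUSG00000021278, chromosome 12, 111271095 to 111276426) had 138, 127, 144 and 143 CPM in the knockout-labelled libraries and 182, 169, 176 and 195 CPM in the wildtype-labelled libraries. Both groups were tight and far apart, with means of 138 ± 7.54 CPM for knockout and 180.4 ± 11.1 CPM for wildtype (SD, n = 4 each). Amn fell to 76.6% of the wildtype level (log2 fold change -0.38 ± 0.071 (SE), 95% confidence interval -0.54 to -0.23, edgeR adjusted p = 0.00601), and adjusted p stayed between 0.00986 and 0.0221 when each library was left out in turn. Its call ended only when a circadian clock score of each library was entered as a term (log2 fold change -0.39, edgeR adjusted p = 0.0681), of 17 alternative fits run. That score went partly with the labels.

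**Figure D1:**
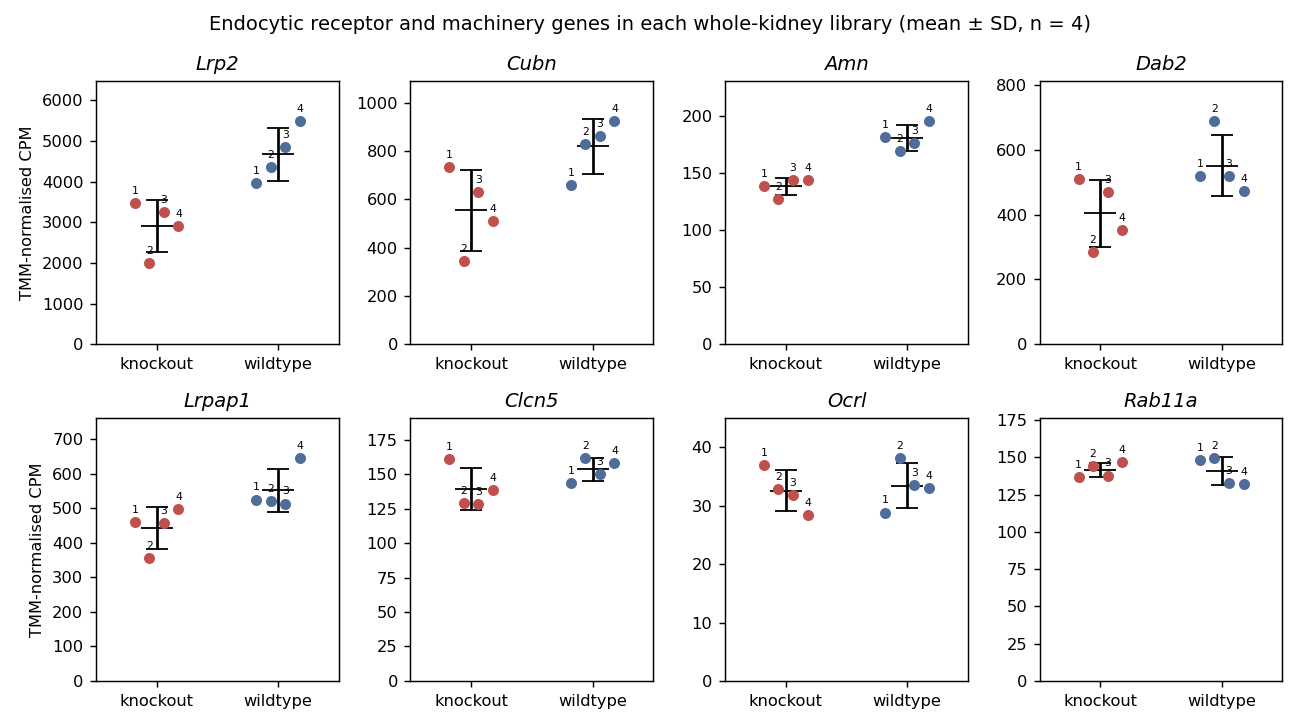
TMM-normalised CPM (y axes from 0, own scale per gene) of the 8 genes in the 4 knockout-labelled libraries (left, red) and the 4 wildtype-labelled ones (right, blue), numbered by replicate, with mean and SD in black. Lrp2, Amn and Lrpap1 have groups that do not overlap, with all 4 knockout-labelled libraries lower, and Rab11a averages 141 CPM in both groups.

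The adaptor and the chaperone of megalin lay lower in most knockout-labelled libraries, and neither passed the test. Dab2 (ENSMUSG00000022150, chromosome 15, 6299788 to 6440712), the clathrin adaptor that binds the tail of megalin, had 510.3, 285, 468 and 351 CPM in the knockout-labelled libraries, against 519, 688, 520.4 and 474 CPM in the wildtype-labelled libraries. Knockout 1 and 3 lay close to or among the wildtype-labelled libraries, and knockout 2 was lowest, as it was for Lrp2 and Cubn. The log2 fold change was -0.45 ± 0.19 (SE, 95% confidence interval -0.87 to -0.03, edgeR adjusted p = 0.159).

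Lrpap1 (ENSMUSG00000029103, chromosome 5, 35091501 to 35105766) encodes RAP, the chaperone that keeps megalin from binding its ligands in the endoplasmic reticulum. It had 460.0, 355, 458 and 498 CPM in the knockout-labelled libraries and 525, 521, 514 and 646 CPM in the wildtype-labelled libraries. The groups did not overlap, with a narrow gap between knockout 4 and wildtype 3. The log2 fold change was -0.32 ± 0.12 (SE, 95% confidence interval -0.57 to -0.06, edgeR adjusted p = 0.101). Dab2 is also transcribed in macrophages and endothelium. Of 12 macrophage markers 11 rose, beside 6.23% of all genes tested. Their summed levels were 339 to 562 CPM in the knockout-labelled libraries and 185 to 231 CPM in the wildtype-labelled libraries. Of 10 endothelial markers 2 fell, beside 5.7% of all genes tested, and all 10 log2 fold changes were below 0, with a median of -0.29. Their summed levels were 703 to 817 CPM in the knockout-labelled libraries and 810.4 to 1034 CPM in the wildtype-labelled ones. None of these markers was at 0 in any library, and their part in the Dab2 values was not tested.

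The genes of Dent and Lowe disease and the recycling GTPase differed little between the groups. Clcn5 (ENSMUSG00000004317, X chromosome, 7153810 to 7319358) had 161, 129, 129 and 139 CPM in the knockout-labelled libraries and 144, 162, 150.5 and 158 CPM in the wildtype-labelled libraries. Knockout 1 was among the highest of all, and 3 knockout-labelled libraries lay below all of the wildtype-labelled ones. The log2 fold change of Clcn5 was -0.14 ± 0.084 (SE, 95% confidence interval -0.32 to 0.05, edgeR adjusted p = 0.318). With 1 library left out it ran from -0.22 to -0.10, with a lowest edgeR adjusted p of 0.0741. Ocrl (ENSMUSG00000001173, X chromosome, 47912387 to 47965868) had 37.0, 32.9, 31.9 and 28.5 CPM in the knockout-labelled libraries and 28.8, 38.2, 33.5 and 33.1 CPM in the wildtype-labelled libraries. The ranges of Ocrl nearly coincided, and the log2 fold change was -0.04 ± 0.103 (SE, 95% confidence interval -0.26 to 0.19, edgeR adjusted p = 0.858). Rab11a (ENSMUSG00000004771, chromosome 9, 64715299 to 64737758) had 137, 144, 138 and 147 CPM in the knockout-labelled libraries and 148, 149.6, 133 and 132 CPM in the wildtype-labelled libraries. Its log2 fold change was 0.01 ± 0.068 (SE, 95% confidence interval -0.14 to 0.16, edgeR adjusted p = 0.962), an interval that does not reach the estimate for Amn.

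Replicates of a group varied to different degrees. The coefficient of variation of Cubn was 30.3% in the knockout-labelled libraries and 13.8% in the wildtype-labelled ones, that of Dab2 25.8% for knockout and 17.1% for wildtype, and that of Lrp2 22.2% for knockout and 14.0% for wildtype. Amn varied by 5.46% for knockout and 6.17% for wildtype, and Rab11a by 3.31% for knockout and 6.76% for wildtype. Genes with large spread thus needed larger differences to pass, and the difference in spread between the groups was not tested. On GRCm38, 2.46% of the exonic bases of Cubn and 2.87% of those of Dab2 overlap a gene on the opposite strand. Reads there may be lost or shared where strand was not used in counting. Of the exonic bases of Rab11a, 3.58% overlap a gene on the same strand, where this can happen whether or not strand was used.

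Counted together, 2 of the 8 genes fell, beside 5.7% of all genes tested, and 6 did not pass the test, with 7 of 8 log2 fold changes below 0, although that of Ocrl was 0.069 with library totals. Their median log2 fold change was -0.35, beside 0.00 over all genes tested. The groups did not overlap for 3 of the 8, all lower in the knockout-labelled libraries, beside 18.5% of all genes tested, 9.05% lower and 9.42% higher. Without knockout 4, wildtype 3 or wildtype 4, 1 of the 8 fell, and 3 fell without knockout 1 or with DESeq2. None fell with the clock score as a term, and 1 fell without knockout libraries 1 and 4. The clock score was the mean log2 CPM of clock output genes less that of Arntl, Npas2, Clock and Nfil3. It averaged -0.69 ± 1.11 in the knockout-labelled libraries and 1.55 ± 1.16 in the wildtype-labelled libraries (SD, n = 4 each, exact two-sided permutation p = 0.0571). The ranges were -1.57 to 0.91 for knockout and 0.11 to 2.91 for wildtype. Score and label thus went partly together, and a fit that holds both cannot tell their parts fully apart. In that fit the log2 fold change was -0.39 for Lrp2 and -0.16 for Cubn (edgeR adjusted p = 0.376 and 0.8).

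**Figure D2:**
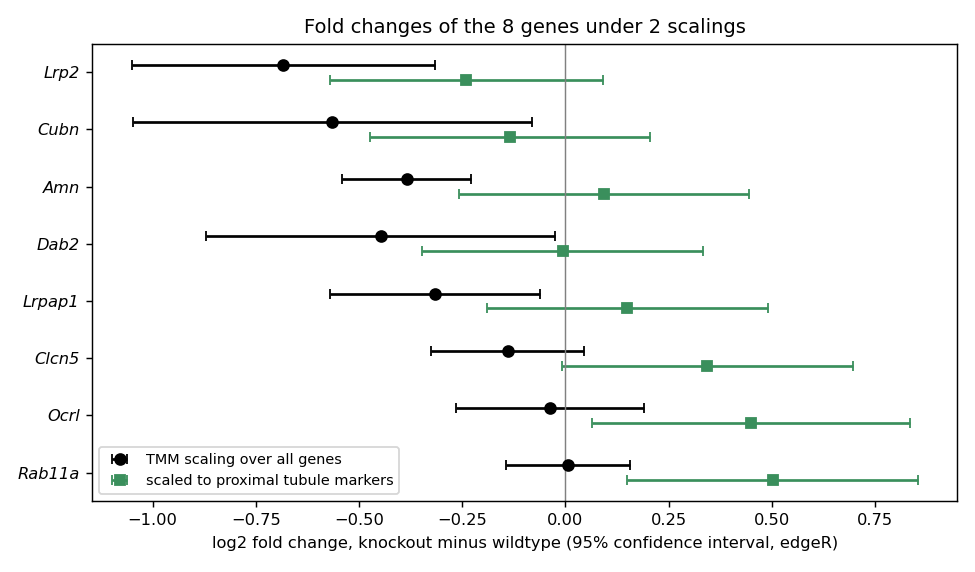
Log2 fold change (x axis, knockout minus wildtype) of each gene with its 95% confidence interval from edgeR, under TMM scaling (black circles) and with each library scaled to 20 proximal tubule markers (green squares). Under TMM the values run from -0.68 for Lrp2 to 0.01 for Rab11a, and under proximal scaling from -0.24 to 0.50 in the same gene order at both ends.

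Megalin and cubilin were also set against their partners, as the log2 ratio of paired genes within each library. Lrp2 over its chaperone Lrpap1 was 2.69 ± 0.21 in the knockout-labelled libraries and 3.08 ± 0.13 in the wildtype-labelled ones (SD, n = 4 each). The groups did not overlap, by a narrow margin between knockout 1 (2.91) and wildtype 1 (2.92). The exact two-sided permutation p was 0.0286, the smallest that 70 assignments allow, and 0.114 after Benjamini-Hochberg adjustment over the 4 ratios tested, so the difference did not pass. Lrp2 over Cubn, Cubn over Amn and Lrp2 over Dab2 differed between the groups, knockout minus wildtype, by -0.09, -0.23 and -0.23 (exact permutation p = 0.257, 0.371 and 0.286). Of the 6 ratios computed, those of Lrp2 and Amn over Rab11a were chosen after the values were seen, so no p is given for them.

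Some other proximal tubule transcripts also fell. Among 20 proximal tubule markers 5 fell, beside 5.7% of all genes tested, and 15 did not pass. Of their log2 fold changes 18 were below 0 and 2 above it, with a median of -0.38. Summed levels were 15357 to 22559 CPM in the knockout-labelled libraries, against 23261 to 27173 CPM in the wildtype-labelled libraries. Slc5a2, the sodium glucose cotransporter of the early proximal tubule, averaged 122 ± 38.2 CPM in the knockout-labelled libraries and 301 ± 58.7 CPM in the wildtype-labelled ones (SD, n = 4 each, log2 fold change -1.30 ± 0.23 (SE), edgeR adjusted p = 0.00954). The gluconeogenic enzyme gene Fbp1 fell with a log2 fold change of -0.43 ± 0.11 (edgeR adjusted p = 0.0328). For the phosphate cotransporter gene Slc34a1 it was -0.65 ± 0.18 (adjusted p = 0.0361). The highest library for both markers above 0, Slc22a6 (806 CPM) and Slc7a13 (17.5 CPM), which were named after their values were seen, was knockout 3. With the clock score as a term the call of Slc5a2 was lost (log2 fold change -0.96, edgeR adjusted p = 0.146), as were those of Fbp1 (0.163) and Slc34a1 (0.31). The calls of Fbp1 and Slc34a1 were also lost in 5 and 6 of 8 fits that each left out 1 library. Knockout 2 had the lowest mean log2 CPM of these markers, 8.42, and knockout 4 the next lowest, 8.68, against 8.93 and 9.11 in knockout 1 and 3 and 9.18 to 9.32 in the wildtype-labelled libraries. The same pair of libraries was lowest among the knockout-labelled libraries for Lrp2, Cubn and Dab2. Of 8 fibroblast and pericyte markers 5 rose, beside 6.23% of all genes tested. Their summed levels were 658 to 1037 CPM in the knockout-labelled libraries and 365 to 521 CPM in the wildtype-labelled libraries. Of 10 tubular injury markers 7 rose, beside the same 6.23%, with summed levels of 3613 to 4353 CPM for knockout and 2321 to 3150.1 CPM for wildtype. Most of that sum was Spp1, which averaged 3240 CPM for knockout and 1992 CPM for wildtype. Clu, the 1 marker of this list below 0, averaged 457 CPM for knockout and 617 CPM for wildtype (log2 fold change -0.43, edgeR adjusted p = 0.0955). Spp1 and Clu were named after their values were seen. Vcam1, an adhesion molecule of injured tubules, averaged 51.6 ± 13.9 CPM in the knockout-labelled libraries and 14.4 ± 2.09 CPM in the wildtype-labelled ones (SD, n = 4 each, log2 fold change 1.84 ± 0.18 (SE), edgeR adjusted p = 0.000303). The part of injury and of other cell types in the receptor values was not tested.

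**Figure D3:**
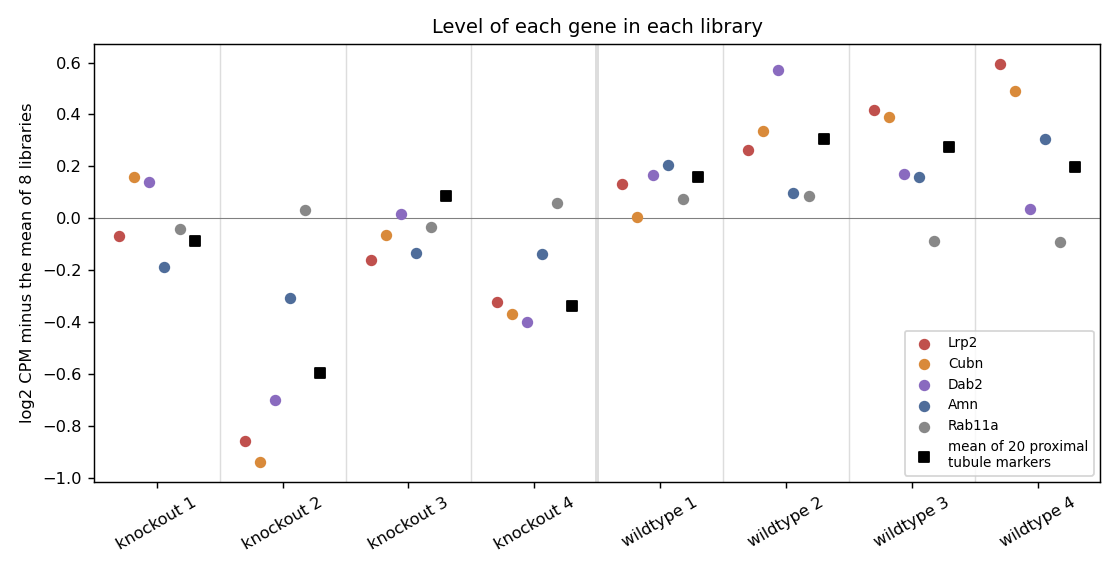
Log2 CPM of Lrp2, Cubn, Dab2, Amn and Rab11a and the mean of 20 proximal tubule markers (black squares) in each library, each minus its own mean over the 8 libraries (y axis, log2 units). In knockout 2 Lrp2, Cubn, Dab2 and the proximal markers are at their lowest, while Rab11a stays close to 0 in all libraries.

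Set against the proximal markers instead of all genes, none of the 8 fell. With each library scaled so that the geometric mean of the 20 markers was equal, Lrp2 averaged 3361 ± 365 scaled CPM in the knockout-labelled libraries and 3970.4 ± 584 in the wildtype-labelled libraries (SD, n = 4 each). The groups then overlapped, and the log2 fold change was -0.24 ± 0.17 (SE, 95% confidence interval -0.57 to 0.09, edgeR adjusted p = 0.201). Cubn had -0.13 ± 0.17, Dab2 -0.01 ± 0.17, Amn 0.09 ± 0.18, Lrpap1 0.15 ± 0.17 and Clcn5 0.34 ± 0.18, none of which passed. Ocrl and Rab11a rose on this scale, by log2 fold changes of 0.45 ± 0.20 and 0.50 ± 0.18 (SE, edgeR adjusted p = 0.0438 and 0.0161). This scaling moved the median of all genes to 0.49, and 52% of all genes tested rose on it while 1.09% fell, so that Ocrl and Rab11a lay at about the median. Both calls were lost without the 5 markers that changed most (edgeR adjusted p = 0.206 and 0.107), without knockout 2, without knockout 4, and without wildtype 2, 3 or 4. Of the 8 fits that left out 1 library, the call of Ocrl was lost in 7 and that of Rab11a in 5. Without knockout 3, 3 of the 8 rose.

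Per length of annotated exons, megalin was the most abundant of the 8 in both groups. CPM per kilobase of exon (RPKM) were formed with the exonic length annotated on GRCm38, which can differ from the mm9 annotation behind the counts. That length joins the exons of all transcripts of a gene, so it can exceed that of the transcript expressed. The order was not checked with other lengths. Lrp2 had 174 ± 38.6 RPKM in the knockout-labelled libraries and 279 ± 39.0 RPKM in the wildtype-labelled libraries (SD, n = 4 each). In the knockout-labelled libraries the order went on with Lrpap1 (108 RPKM), Amn (74.97), Dab2 (55.0), Rab11a (47.2), Cubn (37.1), Clcn5 (12.2) and Ocrl (3.43). In the wildtype-labelled libraries it was Lrpap1 (134 RPKM), Amn (97.9), Dab2 (74.999), Cubn (54.9), Rab11a (47.0), Clcn5 (13.4) and Ocrl (3.52). Neighbours whose ranges overlapped were Lrp2 and Lrpap1, Amn and Dab2, Dab2 and Rab11a, and Rab11a and Cubn in the knockout-labelled libraries. In the wildtype-labelled libraries they were Amn and Dab2, and Cubn and Rab11a. Rab11a and Cubn thus changed places between the groups without a separation beyond their spread.

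The genes with profiles most like that of Lrp2 over the 8 libraries were sought among 10657 others with a mean log2 CPM of at least 3. Likeness was the root mean square difference of log2 CPM, each centred on its mean. Cubn came first at 0.11 log2 units, followed by Pdzk1, a scaffold of brush border transporters, at 0.12, the glucose transporter gene Slc2a12 at 0.12, the vitamin transporter gene Slc5a6 at 0.13 and the amino acid transporter gene Slc7a12 at 0.13. For Cubn the nearest were Lrp2 at 0.11, Ugt3a1 at 0.11, Lin7a at 0.12, Pdzk1 at 0.13 and the clock repressor gene Cry2 at 0.14. Among the 28 pairs within the 8 genes, Amn and Lrpap1 (0.11) and Lrp2 and Cubn (0.11) lay closest, and Cubn and Rab11a (0.47) farthest apart. The measure is also small for genes that vary little, so these distances do not rank how closely pairs vary together. Amn and Lrpap1 were not among each other's 5 nearest genes, which lay at 0.043 to 0.051 for Amn and 0.072 to 0.089 for Lrpap1.

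In the wider endocytic pathway 4 of the 7 genes that fell were receptors. Of 77 other genes of the pathway, all tested, 7 fell, 1 rose and 69 did not pass, where 5.7% of all genes tested fell and 6.23% rose, with a median log2 fold change of -0.07 beside 0.00 over all genes. Among 10 other endocytic receptors 4 fell and none rose, with a median of -0.31. The transferrin receptor gene Tfrc had 87.8, 80.9, 84.9 and 76.5 CPM in the knockout-labelled libraries and 115.5, 139, 115.2 and 136 CPM in the wildtype-labelled libraries, without overlap. Its log2 fold change was -0.62 ± 0.083 (SE, edgeR adjusted p = 0.00111), and it passed in every alternative fit run. The folate receptor gene Folr1 had 283, 221, 283 and 244 CPM in the knockout-labelled libraries and 386, 347, 375 and 375 CPM in the wildtype-labelled libraries. Its log2 fold change was -0.52 ± 0.091 (edgeR adjusted p = 0.0043; 0.0719 in the fit with a clock term). Sorl1, a sorting receptor of the same family as megalin, fell with a log2 fold change of -0.47 ± 0.099 (edgeR adjusted p = 0.0115; 0.239 in the fit with a clock term and 0.0511 without knockout libraries 1 and 4). Vldlr, the very low density lipoprotein receptor gene, fell with -0.39 ± 0.090 (edgeR adjusted p = 0.017). Its call was lost in the fit with a clock term (-0.21, adjusted p = 0.323), with library totals (0.0605), without knockout 2 (0.0566) and without knockout 4 (0.0554). Vldlr falls outside the naming rule and was named after its values were seen.

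Outside the receptors single genes passed. None of 16 genes of the clathrin coat and AP-2 adaptor complex and none of 12 early endosome genes passed in the edgeR fit with TMM over all libraries, with medians of -0.03 and -0.09. The coat gene Epn2, an epsin, passed with library totals (log2 fold change 0.23, edgeR adjusted p = 0.0446) and had 0.12 under TMM (adjusted p = 0.239). The lowest adjusted p among the coat genes was that of Ap2a2, a subunit of the adaptor complex, with a log2 fold change of -0.24 ± 0.074 (edgeR adjusted p = 0.0541). Ap2a2 passed with DESeq2 (adjusted p = 0.00842), with limma voom (0.0482) and with edgeR without knockout 3 (0.0281). Of 10 other adaptors and motors 1 fell, the minus-end-directed myosin gene Myo6 (-0.27 ± 0.078, edgeR adjusted p = 0.0454), whose call was lost in 7 of 8 fits that left out 1 library. Inpp5b, the closest relative of Ocrl, had -0.29 ± 0.12 (adjusted p = 0.137), and -0.43 without knockout 3, where it passed (edgeR adjusted p = 0.00528). Of 12 recycling endosome genes 1 fell, Rab11fip3, which encodes a partner of RAB11 proteins (-0.38 ± 0.103, adjusted p = 0.0337; lost in 6 of 8 fits that left out 1 library). Rab11fip3 averaged 376 ± 56.6 CPM in the knockout-labelled libraries and 491 ± 15.1 CPM in the wildtype-labelled libraries (SD, n = 4 each). Of 17 late endosome and lysosome genes 1 fell and 1 rose. The chloride-proton exchanger gene Clcn4, a relative of Clcn5, fell with -0.28 ± 0.064 (adjusted p = 0.0172), a call lost in the fit with a clock term (0.236), with library totals (-0.18, adjusted p = 0.0962) and without knockout 2 (0.0551). The cathepsin gene Ctsd had 967 to 1067 CPM in the knockout-labelled libraries and 816 to 873 CPM in the wildtype-labelled libraries, with a log2 fold change of 0.29 ± 0.074 (adjusted p = 0.029; lost in 6 of 8 fits that left out 1 library). With a clock term Tfrc was the 1 gene of the 77 that fell. Of the 77, 3 fell without knockout 2, 4 without knockout 4 and 11 without knockout 1.

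**Figure D4:**
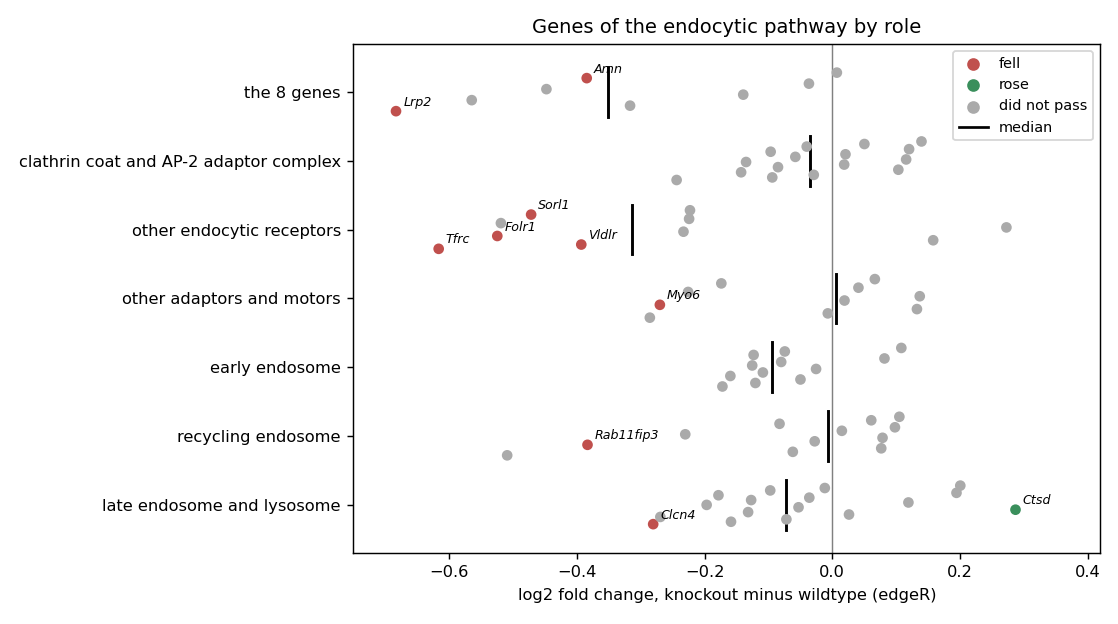
Log2 fold change (x axis, knockout minus wildtype, edgeR) of the 8 genes and of 77 other genes of the endocytic pathway by role, 1 point per gene, with black bars at the medians. Genes that fell are red, the 1 that rose is green, and the medians of the 8 genes (-0.35) and of the other receptors (-0.31) lie left of those of the coat (-0.03) and endosome groups.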

How the data were processed

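The deposited values are raw counts of reads per gene, 1 file per library. The submitters' processing notes name STAR, HTSeq, edgeR and build mm9, with versions, annotation and roles not given in the sources used here. Per the labels' protocols, Trizol RNA went into a directional kit, but the files are named as not stranded, so reads of a gene and an antisense partner cannot be told apart. Of all records, 63.8% to 69.1% were assigned to genes and 13.0% to 16.8% to no feature; those without a gene stayed out of all fits. Symbols came from a gene name table (32860 of 37583 identifiers matched).

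Genes passing filterByExpr were scaled by TMM and tested with edgeR's quasi-likelihood test (edgeR 4.0.16, R 4.3.3, two-sided, Benjamini-Hochberg over 15228 genes, threshold 0.05). The test was also run on simulated counts. The changes planted there were larger than those of Amn, Folr1, Sorl1, Vldlr, Rab11fip3, Myo6, Clcn4, Ctsd and Fbp1. That run does not cover calls of such a size. Alternatives were DESeq2 1.42.0 and its size factors, limma 3.58.1 voom, library totals, other filters, a replicate block, a clock score term, and fits without single libraries or without knockout 1 and 4. The members, lists and alternatives were chosen with earlier results of these data known. Named were the 8 members, up to 3 genes per pathway role and marker list by smallest adjusted p, Tfap2b, and the 5 nearest profiles of Lrp2 and Cubn. Libraries of a group were distinct (chi-square per degree of freedom 9.49 to 25.3). Windows and gene positions are from RefSeq and GENCODE on GRCm38, not mm9, and served for sequences, positions and exonic lengths only.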

Additional observations from a re-analysis of the deposited data

Results flagged for a closer look

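In 102 groups of 4 values (named genes, marker list means, the clock score), 7 had a library far from the other 3, measured as its gap to the nearest library over the range of the group, where chance gives about 1 in 20. Wildtype 4 was highest for Lrpap1 (0.9127), which is the only one of the 8 genes concerned. Knockout 1 was highest for Clcn7 (0.8514) and for Vcam1 (0.8702). Wildtype 1 was highest for Cdkn1a (0.8553) and knockout 2 for Tfap2b (0.8887). Knockout 4 was highest for Star (0.9715) and for the summed level of 7 adrenal genes (0.9951), with a sum of 238 CPM, while the remaining knockout-labelled libraries had 7.72 to 8.84 CPM and the wildtype-labelled ones 6.31 to 7.46 CPM. Lrp2 and Amn without knockout 4 had log2 fold changes of -0.68 and -0.40 (edgeR adjusted p = 0.063 and 0.0167).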

How the results depend on the processing

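The 17 alternatives left Lrp2, Cubn, Amn, Dab2 and Lrpap1 below 0 throughout, and none of the 8 genes rose in any of them under TMM or another scaling over all genes. The deviations of same-numbered replicates had weak correlations (-0.22, -0.21, -0.05 and 0.16). The best partner carried the same number for replicate 4 only, and so few values cannot settle whether the numbers pair the samples. A replicate block gave 1094 genes that differed against 1817, and 2 of the 8 genes fell. In that fit 2 pathway genes fell and 0 rose, and 0 of the 8 rose relative to proximal markers. Tfrc and Folr1 were the 2 pathway genes that fell. Sorl1 (edgeR adjusted p = 0.053), Vldlr (0.0532) and Clcn4 (0.08) were among those that no longer passed. With the clock score as a term 810 genes differed, 0 of the 8 fell, 1 pathway gene fell and 0 rose, and 0 rose relative to proximal markers. Without knockout libraries 1 and 4 these values were 912, 1, 4, 0 and 0. With library totals 5 pathway genes rose and 3 fell, without a filter 0 rose, and without the 5 proximal markers of largest change 0 of the 8 rose relative to the rest. Leaving out 1 library at a time gave 1076 to 1940 genes that differed (1076 without knockout 2, 1176 without knockout 4), 1 to 3 of the 8 that fell, 0 to 1 pathway genes that rose, 3 to 11 that fell, and 0 to 3 of the 8 that rose relative to proximal markers. Signs turned for genes near 0: Ocrl had 0.069 with library totals, 0.14 with the clock term and -0.10 to 0.031 with 1 library left out. With the clock term Clcn5 had 0.033 and Rab11a -0.085, and Rab11a ran from -0.023 to 0.037 with 1 library left out. Relative to proximal markers and with the clock term, Cubn had 0.20, Amn -0.011 and Dab2 0.069. Amn had -0.049 without those 5 markers, and Dab2 ran from -0.090 to 0.090 with 1 library left out. The causes of these shifts were not tested, and fits that left out libraries also rested on fewer of them. The lowest count of any of the 8 genes in a library was 383, for Ocrl, and precision is limited by 4 libraries a group.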
